A study of Mus musculus with 24 samples.

Results

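The immediate early genes *Fos*, *Fosb*, *Jun*, *Junb*, *Egr1*, *Atf3*, *Ier2*, *Nr4a1*, *Dusp1* and *Klf6* were taken by gene name from the deposited expression tables of mouse liver, and all 10 were present among 24319 genes. Immediate early genes are transcribed within minutes of a stimulus from factors already present in the cell, such as serum response factor and CREB. Signals from Erk and other kinases act through these factors. Many of their products are transcription factors that pass the signal on to later genes, and *Dusp1* encodes a phosphatase that switches MAP kinases off again. In liver they are known for their burst after partial hepatectomy, after fasting hormones and during the isolation of hepatocytes.

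RNA was sequenced from 24 samples of male mice aged 2 months, 12 of whole liver and 12 of isolated hepatocytes, with 3 biological replicates in each of 8 groups. The genotypes were the Double KO (Alb-Cre+;IkkBf/f;Shp2f/f), the IkkB KO (Alb-Cre+;IkkBf/f), the Shp2 KO (Alb-Cre+;Shp2f/f) and the wild type (WT), all on strain C57/BL6. IkkB, encoded by *Ikbkb*, activates NF-kB, and Shp2, encoded by *Ptpn11*, relays receptor signals to Ras and Erk; the series title asks what follows when both pathways are disrupted together. The *Alb* promoter is known to drive Cre mainly in hepatocytes, and also in bile duct cells through shared precursors; deletion in other liver cells was not measured here. The WT label names neither Cre nor floxed alleles, and in a comparison against WT these cannot be told apart from the loss of the gene.

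The tables held 1 value per gene and genotype on the scale of FPKM, that is, fragments scaled by transcript length and library size, and no value per replicate. No SD, n or depth can therefore be attached to a value, and the error of each difference is known only through the q-value (adjusted p-value) that Cuffdiff gave in the authors' deposited tables. "Rose" and "fell" mark q under 0.05, and log2 ratios are of the deposited values. The smallest q in the authors' deposited tables was 0.000955 for liver and 0.00048 for hepatocytes. The tables were made separately, so levels were compared within a table. Cuffdiff tested 9 of the 10 genes in all 11 pairs of genotypes; *Fosb* was in none of these tests.

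The targeted transcripts and the cell type markers were checked first. *Ikbkb* was 6.31 in Double KO, 9.48 in IkkB KO and 14.2 in Shp2 KO, against 15.7 in WT liver. Hepatocyte *Ikbkb* was 5.29 in Double KO, 7.16 in IkkB KO and 15.1 in Shp2 KO, against 17.3 in WT. *Ptpn11* was 6.09 in Double KO, 10.1 in IkkB KO and 4.09 in Shp2 KO, against 12.5 in WT liver. Hepatocyte *Ptpn11* was 5.77 in Double KO, 14.5 in IkkB KO and 4.46 in Shp2 KO, against 16.3 in WT. Each was lower than in WT where its label says it was deleted. The Double KO and single knockouts were not equal in liver. *Ptpn11* was higher in Double KO than in Shp2 KO (log2 ratio 0.57, q = 0.0226 in the authors' deposited table), and *Ikbkb* lower than in IkkB KO (-0.59, q = 0.0188). In hepatocytes neither passed (0.37, q = 0.213 and -0.44, q = 0.135). The part of this in differences between Double KO and single knockouts was not tested. Of the hepatocyte markers, *Alb* and *Serpina1c* were listed at 0 in all genotypes of both tables and *Apoa1* in at least 1, while the summed level of the marker list was between 12128 and 30384 in the 8 groups. *Apoa1* was 16137 in WT and 5770 in Shp2 KO hepatocytes, so these zeros are not read as absence. The sums depend on which groups hold a value for it and were not compared between genotypes. Markers of other liver cells were detected in the isolated hepatocytes as well, and the macrophage list summed to 352 in Double KO, 333 in IkkB KO and 275 in Shp2 KO, against 113 in WT hepatocytes.

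Promoter windows show how these genes are built. RefSeq (GRCm38.p6) gave the 250 bases before the start for 8 of the 10 genes, all except *Egr1* and *Ier2*. The 5 windows below belong to the genes called in Double KO liver against WT, in either direction: *Dusp1* and *Nr4a1* fell there, and *Klf6*, *Jun* and *Atf3* rose. They lie at chr17:26508473-26508722 (*Dusp1*, minus strand), chr15:101266596-101266845 (*Nr4a1*, plus strand), chr13:5861239-5861488 (*Klf6*, plus strand), chr4:95052223-95052472 (*Jun*, minus strand) and chr1:191183334-191183583 (*Atf3*, minus strand). Each is written 5′ to 3′ on the gene's strand. Capitals mark matches to the motifs searched, which here are the cAMP response element TGACGTCA, its core TGACG, read as its complement where the match is on the other strand, and the Ets site CCGGAA.
Dusp1: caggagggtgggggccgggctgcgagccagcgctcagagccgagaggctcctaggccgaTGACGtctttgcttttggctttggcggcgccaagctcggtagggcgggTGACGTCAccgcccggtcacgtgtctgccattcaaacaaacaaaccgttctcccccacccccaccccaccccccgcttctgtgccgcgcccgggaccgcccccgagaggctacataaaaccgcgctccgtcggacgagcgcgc
Nr4a1: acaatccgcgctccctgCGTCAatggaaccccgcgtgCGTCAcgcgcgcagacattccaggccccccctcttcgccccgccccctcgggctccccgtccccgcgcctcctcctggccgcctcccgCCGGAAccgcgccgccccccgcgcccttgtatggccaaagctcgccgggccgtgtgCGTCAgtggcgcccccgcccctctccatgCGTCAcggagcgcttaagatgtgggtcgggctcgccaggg
Klf6: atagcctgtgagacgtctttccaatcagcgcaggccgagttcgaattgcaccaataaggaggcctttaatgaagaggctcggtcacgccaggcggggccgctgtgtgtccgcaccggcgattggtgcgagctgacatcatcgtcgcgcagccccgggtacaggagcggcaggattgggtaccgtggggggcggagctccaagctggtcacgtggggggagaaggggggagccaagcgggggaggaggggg
Jun: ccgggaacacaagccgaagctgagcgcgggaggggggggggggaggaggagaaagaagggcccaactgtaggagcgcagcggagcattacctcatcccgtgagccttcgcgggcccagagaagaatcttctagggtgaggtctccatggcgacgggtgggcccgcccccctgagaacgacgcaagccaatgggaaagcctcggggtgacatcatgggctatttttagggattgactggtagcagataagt
Atf3: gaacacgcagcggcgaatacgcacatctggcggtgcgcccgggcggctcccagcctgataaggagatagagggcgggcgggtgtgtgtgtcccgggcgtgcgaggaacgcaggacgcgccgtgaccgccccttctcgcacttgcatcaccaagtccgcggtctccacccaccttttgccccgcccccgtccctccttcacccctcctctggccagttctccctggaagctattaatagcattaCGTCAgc

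The core TGACG, the sequence that CREB and ATF proteins recognise, was found on either strand in 6 of the 8 windows (*Fos*, *Fosb*, *Junb*, *Atf3*, *Nr4a1* and *Dusp1*), against 17.8% of 32851 RefSeq promoter windows. *Nr4a1* held 4 copies, all on the other strand. The core holds a CG dinucleotide, and these 8 windows held 15 to 34 of them, against a median of 6 over all windows. The 17.8% was not matched for this. Whether the core is commoner here than in windows as rich in CG was not tested. *Dusp1* was the 1 gene of the 8 with the full element TGACGTCA, from 143 to 136 bases before the start, which 1.55% of all windows held; the core lies within the full element and is counted in both. Both groups that moved in Double KO liver held windows with the core: both genes that fell, and *Atf3* of the 3 that rose.

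**Figure D1:**
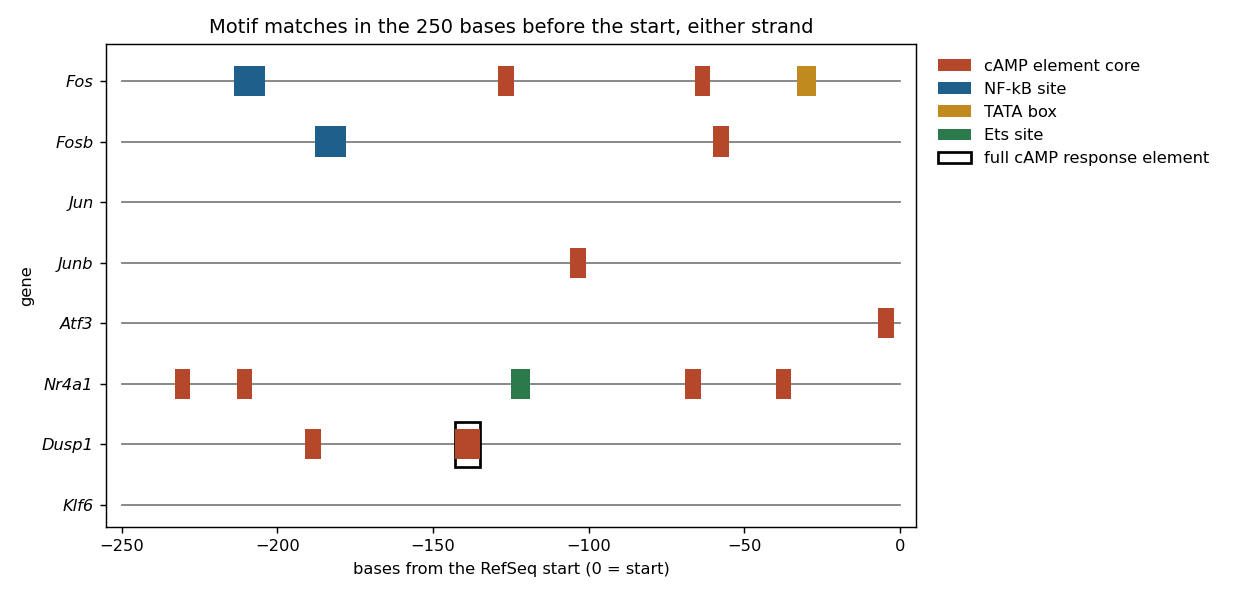
Matches to the motifs searched in the 250 bases before the RefSeq start of 8 immediate early genes, either strand (x axis, bases from the start; 1 line per gene). Boxes are matches; the core of the cAMP element appears in 6 of the 8 windows, 4 times in *Nr4a1*, and the outlined box marks the full element in *Dusp1*.

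The other motifs were rarer in these windows. The NF-kB site was found in *Fos* and *Fosb* (2 of 8, against 7.25% of all windows), the Ets site CCGGAA in *Nr4a1* (1 of 8, against 12%) and the TATA box TATAAA in *Fos* (1 of 8, against 12.4%). Neither the CArG box of serum response factor (0 of 8, against 1.47%) nor the AP-1 site TGANTCA (0 of 8, against 6.75%) was found, which says only that these letters are not in these windows. The windows were rich in G and C, with 58.4% to 74.4% against a median of 52.4% over all windows, and held 15 to 34 CG dinucleotides against a median of 6. A match of letters is a description and not a measured binding site.

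The genes were compact. In the GENCODE annotation of GRCm38, the longest coding transcript spanned 1522 bases of genome for *Ier2* to 20527 for *Nr4a1*, and 9 of the 10 genes were below the median of 15796 over 21875 coding genes. They had 1 to 8 exons, against a median of 7, with a single exon in *Jun*, *Junb* and *Ier2*. The word ATTTA is the core of the elements that mark unstable mRNAs. It occurred 3 or more times in the 3′ untranslated region of 6 of the 10, against 37.4% of 19710 genes. These were *Klf6* (7 times), *Fos*, *Jun* and *Dusp1* (4 times each), and *Atf3* and *Nr4a1* (3 times each). Such counts depend on the length of the region, which was 3111 bases in *Klf6* against a median of 1024. Per kilobase, *Klf6* held 2.25, near the 1.93 over all genes. *Dusp1* held 5.797 per kilobase, *Nr4a1* 5.525, *Fos* 4.908, *Junb* 4.124, *Jun* 3.244 and *Atf3* 2.53. *Egr1*, *Fosb* and *Ier2* lay below 1.93. None of the 10 had an exon that overlaps another gene, so counting without strand would not mix them with a neighbour in this annotation.

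*Fos*, *Fosb*, *Jun*, *Junb* and *Atf3* encode leucine zipper proteins that pair to form the AP-1 factor or related dimers. In whole liver, *Fos* was 0.852 in Double KO, 0.480 in IkkB KO and 1.13 in Shp2 KO, against 1.20 in WT. It fell in IkkB KO against WT (log2 ratio -1.32, q = 0.00503 in the authors' deposited table) and was higher in Shp2 KO than in IkkB KO (1.24, q = 0.0104). No neighbours in that order passed the threshold, so the intermediate place of the Double KO is not resolved. In hepatocytes, *Fos* was 2.38 in Double KO, 1.09 in IkkB KO and 1.54 in Shp2 KO, against 1.77 in WT, and the Double KO was higher than the IkkB KO (1.12, q = 0.0188 in the authors' deposited table). IkkB KO held the lowest *Fos* value in each table, although hepatocyte IkkB KO against WT did not pass (-0.69, q = 0.212 in the authors' deposited table). *Fosb* was barely detected, between 0.0768 and 0.128 in liver and between 0.0130 and 0.0699 in hepatocytes.

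*Jun*, the main partner of the Fos proteins, was high in the Double KO. Its liver values were 11.8 in Double KO, 5.32 in IkkB KO and 7.995 in Shp2 KO, against 6.41 in WT. The Double KO exceeded WT (log2 ratio 0.88, q = 0.000955 in the authors' deposited table), IkkB KO (1.15, q = 0.000955) and Shp2 KO (0.56, q = 0.0325), and Shp2 KO exceeded IkkB KO (0.59, q = 0.0365). The hepatocyte values were 21.03 in Double KO, 14.9 in IkkB KO and 12.9 in Shp2 KO, against 17.0 in WT. There the Double KO was again highest but passed only against Shp2 KO (0.70, q = 0.00636 in the authors' deposited table), not against WT (0.30, q = 0.329) or IkkB KO (0.50, q = 0.0631). *Jun* was called in 5 of 11 comparisons, each time higher in the genotype named first. That order is knockout against WT, Double KO against a single knockout and Shp2 KO against IkkB KO. Against WT it was called only in Double KO liver. The 11 comparisons share groups, so such tallies are not independent.

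*Junb*, an AP-1 member that often restrains Jun, had liver values of 24.2 in Double KO, 13.1 in IkkB KO and 20.1 in Shp2 KO, against 21.03 in WT. The IkkB KO stood below the other genotypes. It fell against WT (log2 ratio -0.69, q = 0.00785 in the authors' deposited table), and Double KO (0.89, q = 0.000955) and Shp2 KO (0.62, q = 0.0300) were higher than IkkB KO. Hepatocyte values were 36.3 in Double KO, 35.8 in IkkB KO and 40.1 in Shp2 KO, against 45.2 in WT, and no pair passed.

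*Atf3*, a stress-induced repressor and partner of Jun, was 3.02 in Double KO, 1.12 in IkkB KO and 1.88 in Shp2 KO, against 1.14 in WT liver. It rose in Double KO against WT (log2 ratio 1.41, q = 0.000955 in the authors' deposited table) and was higher than in IkkB KO (1.44, q = 0.000955), but against Shp2 KO the difference did not pass (0.68, q = 0.0674). Hepatocytes had a different order, with 0.984 in Double KO, 1.38 in IkkB KO and 2.27 in Shp2 KO, against 0.913 in WT. There *Atf3* rose in Shp2 KO against WT (1.32, q = 0.0079 in the authors' deposited table), and the Double KO was lower than the Shp2 KO (-1.21, q = 0.00986) and near WT (0.11, q = 0.906).

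**Figure D2:**
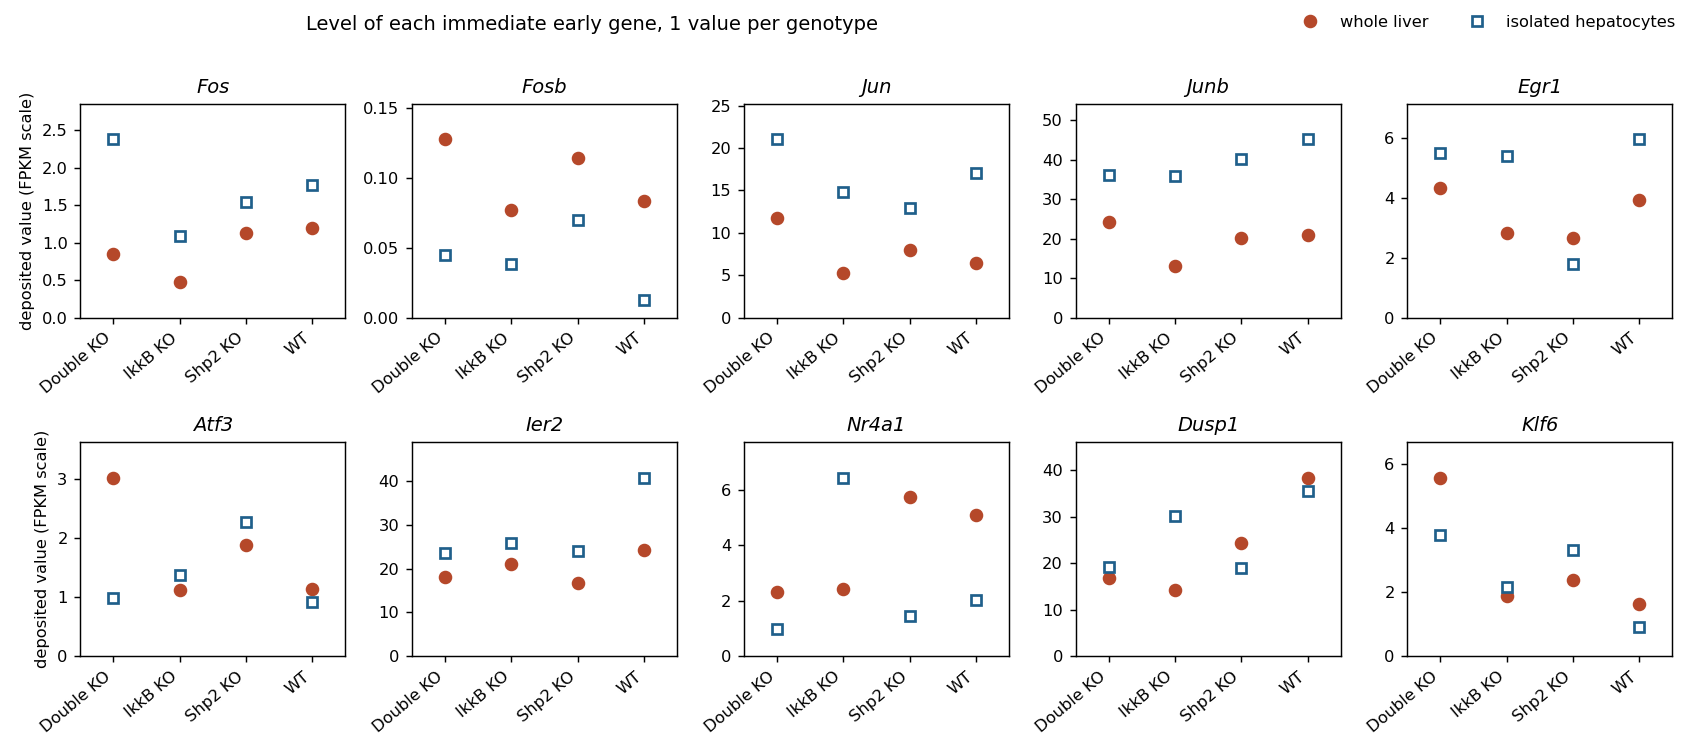
Deposited value (FPKM scale, y axis from 0, own range in each panel) of the 10 immediate early genes by genotype, filled circles for whole liver and open squares for isolated hepatocytes, 1 value per genotype with no replicate values. *Klf6* is lowest in WT and *Dusp1* highest in WT in both preparations, while *Nr4a1* in IkkB KO is at 2.43 in liver and 6.44 in hepatocytes.

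In WT liver *Dusp1* (38.4), *Ier2* (24.3) and *Junb* (21.03) had the highest levels of the 10 on this per-length scale, and *Fosb* had the lowest (0.0836).

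The zinc finger factors differed among themselves. *Egr1*, a direct target of Erk through serum response factor, was 4.33 in Double KO, 2.81 in IkkB KO and 2.65 in Shp2 KO, against 3.94 in WT liver. No knockout passed against WT there, with log2 ratios of 0.14 in Double KO (q = 0.842 in the authors' deposited table), -0.49 in IkkB KO (q = 0.207) and -0.57 in Shp2 KO (q = 0.0942), and the Double KO was higher than the Shp2 KO (0.71, q = 0.0175). In hepatocytes the Shp2 KO stood apart, with 5.50 in Double KO, 5.39 in IkkB KO and 1.80 in Shp2 KO, against 5.95 in WT. *Egr1* fell in Shp2 KO hepatocytes against WT (-1.72, q = 0.00048 in the authors' deposited table), and the Double KO was higher than the Shp2 KO (1.61, q = 0.00048) and near WT (-0.12, q = 0.824).

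*Klf6*, a Krüppel-like factor induced by liver injury, was the gene of the 10 with the most calls higher in the genotype named first, 7 of 11, and had 0 lower. Its liver values were 5.56 in Double KO, 1.87 in IkkB KO and 2.36 in Shp2 KO, against 1.62 in WT. The Double KO was above every other genotype (log2 ratio 1.78 to WT, 1.57 to IkkB KO and 1.23 to Shp2 KO, each with q = 0.000955 in the authors' deposited table), and neither single knockout passed against WT. In hepatocytes it was 3.78 in Double KO, 2.14 in IkkB KO and 3.31 in Shp2 KO, against 0.907 in WT. *Klf6* rose in all 3 knockouts against WT there, by 2.06 in Double KO and 1.87 in Shp2 KO (each q = 0.00048 in the authors' deposited table) and by 1.24 in IkkB KO (q = 0.00127); the Double KO was higher than the IkkB KO (0.82, q = 0.00815) but not resolved from the Shp2 KO (0.20, q = 0.666).

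*Nr4a1*, an orphan nuclear receptor induced in liver by cAMP and glucagon, went opposite ways in the 2 preparations of the IkkB KO. Its liver values were 2.31 in Double KO, 2.43 in IkkB KO and 5.73 in Shp2 KO, against 5.09 in WT, so that the genotypes without IkkB formed the low pair. It fell against WT in Double KO (log2 ratio -1.14, q = 0.000955 in the authors' deposited table) and IkkB KO (-1.07, q = 0.00315), and these did not differ past the threshold (Double KO against IkkB KO -0.07, q = 0.948). In hepatocytes *Nr4a1* was 0.970 in Double KO, 6.44 in IkkB KO and 1.45 in Shp2 KO, against 2.04 in WT. It rose in IkkB KO (1.66, q = 0.00048 in the authors' deposited table) and fell in Double KO (-1.07, q = 0.0275; the call was lost when adjusted within that comparison alone), and the Double KO was lower than the IkkB KO (-2.73, q = 0.00048).

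*Ier2*, a small nuclear protein of the early response, was highest in WT in both tables. Its liver values were 18.1 in Double KO, 21.1 in IkkB KO and 16.6 in Shp2 KO, against 24.3 in WT, and it fell in Shp2 KO (log2 ratio -0.55, q = 0.0354 in the authors' deposited table). In hepatocytes it was 23.6 in Double KO, 26.0 in IkkB KO and 24.0 in Shp2 KO, against 40.8 in WT. It fell in all 3 knockouts there, by -0.79 in Double KO (q = 0.00197 in the authors' deposited table), -0.65 in IkkB KO (q = 0.0108) and -0.77 in Shp2 KO (q = 0.00324), and the knockouts with a deposited pair did not differ past the threshold.

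*Dusp1*, the phosphatase that inactivates p38, Jnk and Erk, was the most often lower of the 10 in the genotype named first. It had 7 calls lower and 1 higher (Shp2 KO against IkkB KO liver) in 11 comparisons. In whole liver it was 16.8 in Double KO, 14.2 in IkkB KO and 24.4 in Shp2 KO, against 38.4 in WT. It fell in all 3 knockouts, by -1.20 in Double KO and -1.44 in IkkB KO (each q = 0.000955 in the authors' deposited table) and by -0.66 in Shp2 KO (q = 0.0311). The Double KO was lower than the Shp2 KO (-0.54, q = 0.0486 in the authors' deposited table), just inside the threshold (adjusted within that comparison alone, the call was lost), and not resolved from the IkkB KO (0.24, q = 0.560). In hepatocytes it was 19.2 in Double KO, 30.1 in IkkB KO and 18.9 in Shp2 KO, against 35.6 in WT. There the Double KO (-0.89, q = 0.00048 in the authors' deposited table) and the Shp2 KO (-0.92, q = 0.00048) fell, and the IkkB KO did not pass (-0.24, q = 0.558); the Double KO was lower than the IkkB KO (-0.65, q = 0.0317), a call that was also lost when adjusted within the comparison.

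**Figure D3:**
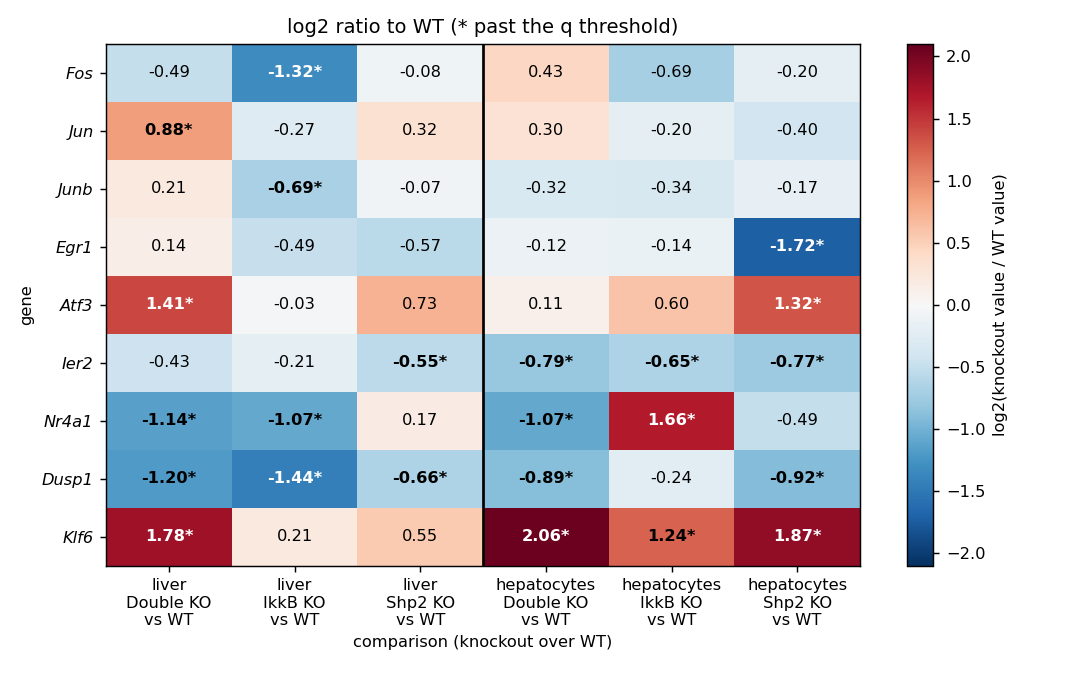
log2 ratio of each knockout to WT for the 9 genes tested (rows) in 6 comparisons (columns, whole liver left of the line and hepatocytes right of it), red for higher and blue for lower in the knockout, with an asterisk where the authors' q is under 0.05. *Dusp1* is past the threshold and lower in 5 of the 6 columns, and *Klf6* past it and higher in 4.

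The comparisons below share samples, since the same WT or knockout group enters several of them, so counts over comparisons are not independent. In Double KO liver against WT, the early genes split: *Jun*, *Atf3* and *Klf6* rose while *Nr4a1* and *Dusp1* fell, so that 3 of 9 tested genes were higher and 2 lower. Over all 12940 genes tested, 11.5% were higher and 6.62% lower. The median log2 ratio of the 9 was 0.14, against -0.04 for all genes tested. In Double KO hepatocytes, *Klf6* rose and *Ier2*, *Nr4a1* and *Dusp1* fell, 1 higher and 3 lower of 9, against 9.04% and 4.56% of 12174 genes, and the median was -0.12 against 0.01. *Nr4a1* and *Dusp1* fell and *Klf6* rose in both preparations. Whole liver and hepatocyte preparations are mixtures of cells, and in such bulk samples fewer cells of a type and less RNA per cell cannot be told apart.

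In IkkB KO liver against WT, *Fos*, *Junb*, *Nr4a1* and *Dusp1* fell, 4 of 9, against 2.17% of 12484 genes. Cuffdiff called 0 of 9 higher, and at an unadjusted p-value under 0.05 also 0 of 9, against 2.37% of all genes called higher. The median was -0.49, against -0.02 for all genes tested. In IkkB KO hepatocytes, *Nr4a1* and *Klf6* rose and *Ier2* fell, 2 higher and 1 lower of 9, against 7.6% and 1.81% of 12135 genes, and the median was -0.20 against 0.00. Of the 4 genes that fell in IkkB KO liver, 0 were called lower in IkkB KO hepatocytes, where 1.81% of all genes were. That count is near the share, and the overlap over all genes was not counted. The hepatocyte log2 ratios kept the sign for *Fos* (-0.69), *Junb* (-0.34) and *Dusp1* (-0.24) but not for *Nr4a1* (1.66). The difference between preparations was not tested.

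In Shp2 KO liver against WT, *Ier2* and *Dusp1* fell, 2 of 9, against 4.1% of 12588 genes. Cuffdiff called 0 of 9 higher and 2 of 9 at an unadjusted p-value under 0.05 (*Atf3* and *Klf6*), where 5.23% of all genes were called higher, and the median was -0.07 against -0.04. In Shp2 KO hepatocytes, *Atf3* and *Klf6* rose and *Egr1*, *Ier2* and *Dusp1* fell, 2 higher and 3 lower of 9, against 7.13% and 4.53% of 12076 genes, with a median of -0.40 against -0.01. *Ier2* and *Dusp1* fell in both preparations.

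Set against the IkkB KO, the Double KO liver had higher *Jun*, *Junb* and *Atf3*, all of the AP-1 group, and higher *Klf6*, 4 of 9, against 11.5% of 12925 genes. Cuffdiff called 0 of 9 lower, also 0 of 9 at an unadjusted p-value under 0.05, while 7.5% of all genes were lower. The median of the 9 was 0.83, against 0.00 for all genes tested to 2 decimals. In hepatocytes the Double KO had higher *Fos* and *Klf6* and lower *Nr4a1* and *Dusp1* than the IkkB KO, 2 higher and 2 lower of 9, against 5.75% and 5.62% of 12321 genes, and the median was 0.02. *Klf6* was the gene higher in both preparations.

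Set against the Shp2 KO, the Double KO liver had higher *Jun*, *Egr1* and *Klf6* and lower *Nr4a1* (log2 ratio -1.31) and *Dusp1*, 3 higher and 2 lower of 9, against 7.94% and 2.83% of 12878 genes, with a median of 0.27. In hepatocytes *Jun* and *Egr1* were higher and *Atf3* lower, 2 and 1 of 9, against 3.44% and 3.31% of 12250 genes, with a median of 0.03. *Jun* and *Egr1* were higher in the Double KO in both preparations.

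The 2 single knockouts differed in liver. *Fos*, *Jun*, *Junb*, *Nr4a1* and *Dusp1* were higher in Shp2 KO than in IkkB KO, 5 of 9, against 5.43% of 12605 genes, and the median was 0.62 against -0.01. *Nr4a1* (log2 ratio 1.24) and *Dusp1* (0.78) had q = 0.000955 in the authors' deposited table. Cuffdiff called 0 of 9 lower, also 0 of 9 at an unadjusted p-value under 0.05, against 4.84% of all genes. For hepatocytes this pair was not analysed here, and the values stand side by side above.

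The level in the Double KO was set beside the sum of the log2 differences of the single knockouts, which is a description, since 1 value per genotype allows no test and all terms share the same WT. In liver, the Double KO lay above the sum for 8 of 9 genes, by 0.33 for *Ier2* up to 1.19 for *Egr1*, and below it for *Nr4a1* (-0.24). Over 12319 genes, 51.9% lay above the sum, with a median of 0.02 and quartiles of -0.25 and 0.31. *Dusp1* is an example: the sum of the single differences was -2.09, and the Double KO was at -1.20. In hepatocytes 6 of 9 lay above the sum, and the spread was wider. *Egr1* was 1.75 and *Fos* 1.32 above it, while *Nr4a1* was 2.24 below (-2.24), *Atf3* 1.80 below (-1.80) and *Klf6* 1.05 below (-1.05). These 5 of 9 were at least 1 away from the sum, where 9.21% of 11765 genes were; in liver it was 2 of 9 (*Egr1* and *Klf6*) against 7.56%. These counts depend on the scale: with log2(value + 1), 3 of 9 in hepatocytes (*Egr1*, *Atf3* and *Nr4a1*) and 0 of 9 in liver were at least 1 away.

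**Figure D4:**
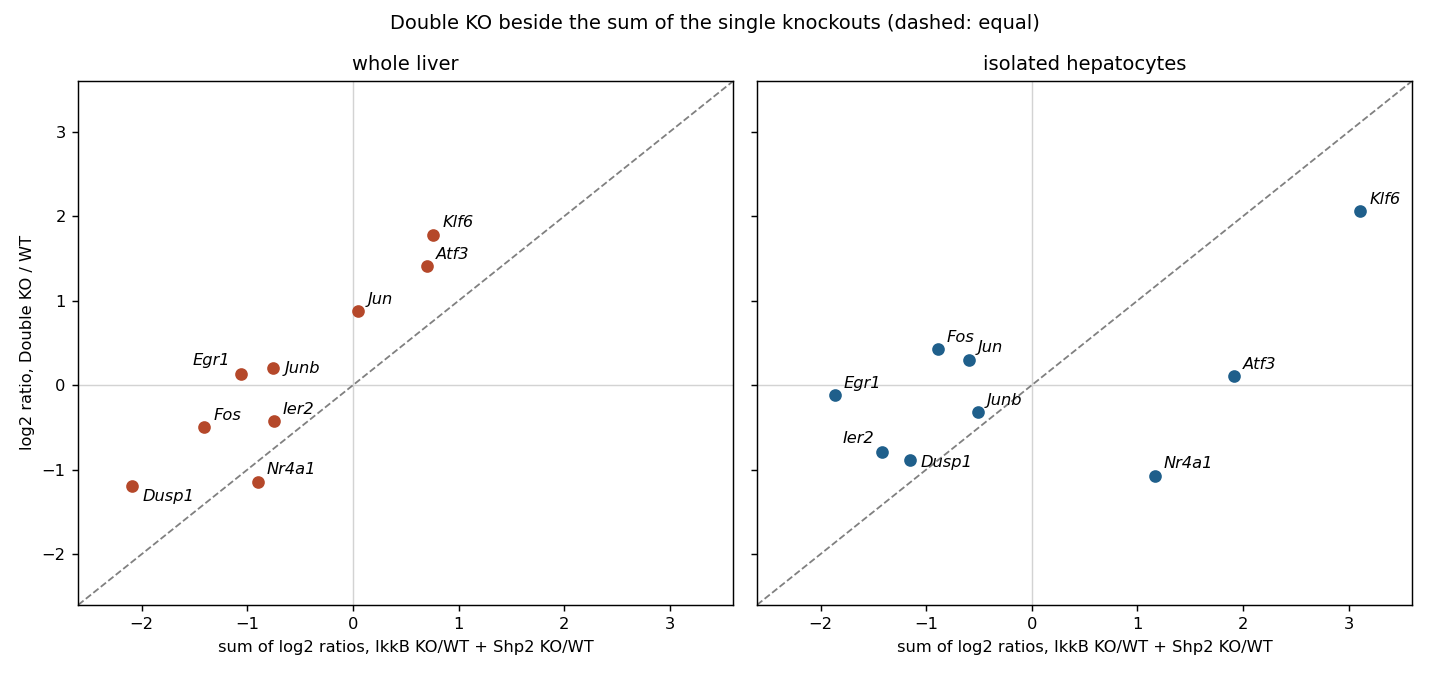
log2 ratio of Double KO to WT (y axis) against the sum of the log2 ratios of IkkB KO and Shp2 KO to WT (x axis) for the 9 genes tested, whole liver left and hepatocytes right; each point is 1 gene and the dashed line marks equality. In liver all genes but *Nr4a1* lie above the line, and in hepatocytes *Nr4a1*, *Atf3* and *Klf6* lie below it.

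Further AP-1 and partner factors, 10 genes of which 8 or 9 were tested, showed 4 higher and 0 lower in Double KO liver against WT, where 11.5% of all genes tested were higher and 6.62% lower. *Jund*, a Jun family member, was 37.2 in Double KO and 18.8 in WT liver (log2 ratio 0.98). *Jdp2*, a repressor of AP-1, was 2.98 in Double KO and 1.24 in WT (1.26). *Fosl2* was 3.03 in Double KO and 1.83 in WT (0.72), and *Batf3* was 3.07 in Double KO and 1.23 in WT (1.32). *Jund* also rose in Shp2 KO liver (0.55) and *Maff*, a small Maf protein, in IkkB KO liver (0.73). This was 1 of 9 in each, where 5.23% and 2.37% of all genes were higher. In hepatocytes *Batf3* (2.29) and *Jdp2* (1.61) rose in IkkB KO, 2 of 9, where 7.6% of all genes were higher. Cuffdiff called 0 of 8 in either direction in Shp2 KO and in Double KO hepatocytes. At an unadjusted p-value under 0.05, 1 and 2 were higher and 0 lower. Of all genes tested, 7.13% were higher and 4.53% lower in Shp2 KO hepatocytes, and 9.04% and 4.56% in Double KO hepatocytes. Counts of 0 or 1 in a list this short are near these shares and are no result about the list. The medians in Double KO were 0.72 in liver and 0.30 in hepatocytes.

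A wider list of 31 immediate early genes, 27 or 28 of them tested, had 12 higher and 3 lower in Double KO liver, 0 higher and 4 lower in IkkB KO liver, and 3 higher and 2 lower in Shp2 KO liver against WT. Of all genes tested, 11.5% were higher and 6.62% lower in Double KO liver, 2.37% and 2.17% in IkkB KO liver and 5.23% and 4.1% in Shp2 KO liver. The counts in Shp2 KO and the 3 lower in Double KO lie close to those shares and are no result about the list. At an unadjusted p-value under 0.05, 4 were higher in IkkB KO liver. *Gadd45b*, a stress gene that acts on MAP kinase signalling, was 3.90 in Double KO, 2.66 in Shp2 KO and 0.595 in WT liver. Its log2 ratios to WT were 2.71 in Double KO and 2.16 in Shp2 KO. *Plk3*, a polo-like kinase, was 105 in Double KO, 111 in Shp2 KO and 47.5 in WT liver. *Klf10* fell in all 3 livers, with 6.58 in Double KO, 10.9 in IkkB KO and 5.81 in Shp2 KO, against 20.0 in WT, and *Bhlhe40*, a clock repressor, fell to 37.6 in Double KO and 40.9 in Shp2 KO, against 76.6 in WT. The list median was 0.34 in Double KO, 0.02 in IkkB KO and 0.08 in Shp2 KO liver.

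In hepatocytes the wider list had 7 higher and 4 lower in Double KO, 3 and 1 in IkkB KO, and 9 and 4 in Shp2 KO against WT. The shares of all genes tested were 9.04% higher and 4.56% lower in Double KO, 7.6% and 1.81% in IkkB KO and 7.13% and 4.53% in Shp2 KO, so the IkkB KO counts lie close to the background. The medians were 0.24 in Double KO, 0.00 in IkkB KO and 0.26 in Shp2 KO. *Gadd45b* rose in Double KO (2.80, against 0.336 in WT, log2 ratio 3.06) and in Shp2 KO (2.45, log2 ratio 2.86). *Cyr61*, a matrix protein induced by growth factors, was 12.5 in Double KO, 8.74 in Shp2 KO and 3.08 in WT. *Sgk1*, a kinase induced by serum and glucocorticoids, rose in all 3, and *Klf10* fell in Double KO (-1.46) and in Shp2 KO (-0.73). Between knockouts, the Double KO liver had 10 higher and 2 lower against IkkB KO, where 11.5% of all genes were higher and 7.5% lower, and 8 higher and 1 lower against Shp2 KO, where the shares were 7.94% and 2.83%. Shp2 KO liver had 7 higher and 3 lower than IkkB KO liver, against 5.43% and 4.84% of all genes. The Double KO hepatocytes had 5 higher and 4 lower against IkkB KO, where 5.75% and 5.62% of all genes were. Against Shp2 KO hepatocytes they had 2 higher and 3 lower, where the shares were 3.44% and 3.31%. The lower counts in Double KO liver and the 2 higher against Shp2 KO hepatocytes are near those shares.

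Other MAP kinase phosphatases changed as well, in both directions. *Dusp6*, which is specific for Erk and induced by it, was 7.91 in Double KO, 13.3 in IkkB KO and 4.61 in Shp2 KO, against 12.1 in WT liver. Hepatocyte *Dusp6* was 4.82 in Double KO, 14.4 in IkkB KO and 3.40 in Shp2 KO, against 8.64 in WT. It fell in Double KO and Shp2 KO in both preparations (log2 ratios of -0.61 in Double KO and -1.39 in Shp2 KO liver, and of -0.84 in Double KO and -1.35 in Shp2 KO hepatocytes) and rose in IkkB KO hepatocytes (0.74). *Dusp8*, which acts on Jnk and p38, rose in the same 4 comparisons, with 1.40 in Double KO, 0.885 in Shp2 KO and 0.274 in WT liver, and 0.970 in Double KO, 0.687 in Shp2 KO and 0.318 in WT hepatocytes. *Dusp4* fell in Shp2 KO liver (-2.70), Shp2 KO hepatocytes (-1.63) and in Double KO liver (-1.22). Of 9 listed genes, 6 to 8 were tested, with medians between -0.24 and 0.45 against WT. Cuffdiff called 0 of 7 in IkkB KO liver in either direction, also 0 at an unadjusted p-value under 0.05. Of all genes tested there, 2.37% were called higher and 2.17% lower, so 0 of 7 is near the background.

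The factors and kinases upstream had few calls at the level of RNA. Of 11 transcription factors of the serum and cAMP response, such as *Srf*, *Elk1* and *Creb1*, Cuffdiff called 0 in any liver knockout against WT (1 lower at an unadjusted p-value under 0.05, in Shp2 KO) and 0 in Shp2 KO hepatocytes (0 at that p-value). *Elk3*, an Ets factor, rose in Double KO (1.69) and IkkB KO (1.83) hepatocytes, against 0.848 in WT. Of 12 kinases of the MAP kinase cascade, *Map2k1* rose in Shp2 KO liver (28.04, against 19.7 in WT), and *Map3k5* fell in Double KO (6.17) and IkkB KO (6.10) hepatocytes, against 9.29 in WT. Cuffdiff called 0 of 12 in Double KO liver (1 higher and 2 lower at an unadjusted p-value under 0.05), IkkB KO liver (0) and Shp2 KO hepatocytes (1 lower). Medians of these lists against WT lay between -0.20 and 0.06. Of all genes tested, 11.5% were higher and 6.62% lower in Double KO liver. The shares were 2.37% and 2.17% in IkkB KO liver and 5.23% and 4.1% in Shp2 KO liver. In hepatocytes they were 9.04% and 4.56% in Double KO, 7.6% and 1.81% in IkkB KO and 7.13% and 4.53% in Shp2 KO. Counts of 0 or 1 in lists this short are near these shares and are no result about the lists.

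Genes induced by glucocorticoids, hormones that also induce *Dusp1*, and heat shock genes, which respond to protein stress, were read beside the early genes. Of 10 glucocorticoid induced genes, *Sgk1* and *Errfi1* of which are also in the wider list, 4 were higher and 1 lower in Double KO liver, 2 and 0 in IkkB KO liver, and Cuffdiff called 0 and 0 in Shp2 KO liver (0 higher and 4 lower at an unadjusted p-value under 0.05). In hepatocytes 1 was higher and 2 lower in Double KO, 1 and 3 in IkkB KO, and 2 and 2 in Shp2 KO. Of all genes tested, 11.5% were higher and 6.62% lower in Double KO liver, 2.37% and 2.17% in IkkB KO liver and 5.23% and 4.1% in Shp2 KO liver, and 9.04% and 4.56% in Double KO, 7.6% and 1.81% in IkkB KO and 7.13% and 4.53% in Shp2 KO hepatocytes. A count of 1 higher or lower in a list this short is near these shares. *Fkbp5* was 10.3 in Double KO, 16.3 in IkkB KO and 31.7 in WT hepatocytes, while *Sgk1* went the other way, with 7.33, 6.28 and 3.59 in the same groups. *Tsc22d3* rose in IkkB KO liver (115, against 65.8 in WT), and *Fkbp5* was not called there (21.8, against 29.1 in WT). In Double KO liver *Tsc22d3* was 62.5 and was not called. *Fkbp5* fell there (17.7, against 29.1 in WT, q = 0.0493 in the authors' deposited table), while 4 genes of the list rose, among them *Cdkn1a* (log2 ratio 2.14). *Dusp1* fell in both of these livers, and its relation to the hormone was not tested. Of 8 heat shock genes, *Hspa1b* rose in all 6 comparisons against WT: it was 10.3 in Double KO, 6.52 in IkkB KO and 7.04 in Shp2 KO, against 2.80 in WT liver. Hepatocyte *Hspa1b* was 7.93 in Double KO, 7.69 in IkkB KO and 8.53 in Shp2 KO, against 4.21 in WT. The heat shock list had 3 higher in Double KO, 2 in IkkB KO and 2 in Shp2 KO liver and 2 in each hepatocyte knockout, with 2 lower in IkkB KO liver and 1 lower in Shp2 KO hepatocytes. The same shares of all genes apply to these 8 genes, and the 1 lower is near its 4.53%.

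Markers of other liver cells moved with some of these changes. The macrophage list, 12 genes found under the names used, summed to 787 in Double KO, 371 in IkkB KO and 391 in Shp2 KO, against 283 in WT liver. Of all genes tested, 11.5% were higher in Double KO, 2.37% in IkkB KO and 5.23% in Shp2 KO liver. In hepatocytes 9.04% were higher in Double KO, 7.6% in IkkB KO and 7.13% in Shp2 KO. Of the 12 markers, Cuffdiff called 12 higher in Double KO, 2 in IkkB KO and 4 in Shp2 KO liver. In hepatocytes it called 12 in Double KO, 12 in IkkB KO and 11 in Shp2 KO. *Klf6* rose in the 4 comparisons against WT that had 11 or 12 macrophage markers higher and was not called in the other 2. Between knockouts, it was higher in Double KO than in IkkB KO hepatocytes. There 1 of 12 markers was higher and 1 lower, against 5.75% and 5.62% of all genes. *Klf6* was also higher in Double KO than in IkkB KO or Shp2 KO liver, with 12 and 10 markers higher, against 11.5% and 7.94%. In Shp2 KO against IkkB KO liver and Double KO against Shp2 KO hepatocytes it was not called. Here 1 and 2 markers were higher, against 5.43% and 3.44%. None of the macrophage markers was at 0, and their part in the values of *Klf6* and the other genes was not tested.

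Endothelial, stellate and bile duct lists also differed between genotypes. Endothelial markers summed to 107 in Double KO, 104 in IkkB KO and 79.7 in Shp2 KO, against 106 in WT liver. Hepatocyte endothelial sums were 82.5 in Double KO, 92.4 in IkkB KO and 51.7 in Shp2 KO, against 46.8 in WT. There 8 of 10 were higher in IkkB KO and 7 of 10 in Double KO hepatocytes. Of all genes tested, 7.6% were higher in IkkB KO and 9.04% in Double KO hepatocytes, shares that also apply to the stellate markers. Stellate cell markers summed to 108 in Double KO, 231 in IkkB KO and 105 in Shp2 KO, against 67.8 in WT hepatocytes. Of these markers, 10 of 10 were higher in IkkB KO, 6 of 10 in Double KO and 4 of 10 in Shp2 KO hepatocytes. In Shp2 KO hepatocytes 7.13% of all genes were higher. Hepatocyte *Nr4a1* was 6.44 in IkkB KO, 0.970 in Double KO and 1.45 in Shp2 KO, against 2.04 in WT. In liver the stellate sums were 251 in Double KO, 212 in IkkB KO and 206 in Shp2 KO, against 186 in WT. Bile duct markers summed to 148 in Double KO, 40.7 in IkkB KO and 51.3 in Shp2 KO, against 65.6 in WT liver, and to 62.6 in Double KO, 32.5 in IkkB KO and 45.1 in Shp2 KO hepatocytes, against 19.9 in WT. The secreted protein *Spp1*, which other cells also make, was most of each of these sums, with 137 in Double KO, 31.1 in IkkB KO and 41.9 in Shp2 KO, against 52.5 in WT liver. Hepatocyte *Spp1* was 55.7 in Double KO, 25.4 in IkkB KO and 38.5 in Shp2 KO, against 12.7 in WT. *Sox9*, a bile duct transcription factor, went the other way in hepatocytes and fell in Double KO (log2 ratio -1.13) and in Shp2 KO (-1.87), so the sums do not speak for the whole list. Neutrophil markers summed to 31.4 in Double KO, 7.64 in IkkB KO and 11.2 in Shp2 KO, against 12.5 in WT liver and to between 1.31 and 3.19 in hepatocytes, where *Mpo* and *Retnlg* were at 0 in at least 1 genotype. Lymphocyte markers summed to between 4.88 and 10.5 in liver and between 0.991 and 3.14 in hepatocytes. The part of these cells in the early gene values was not tested.

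**Figure D5:**
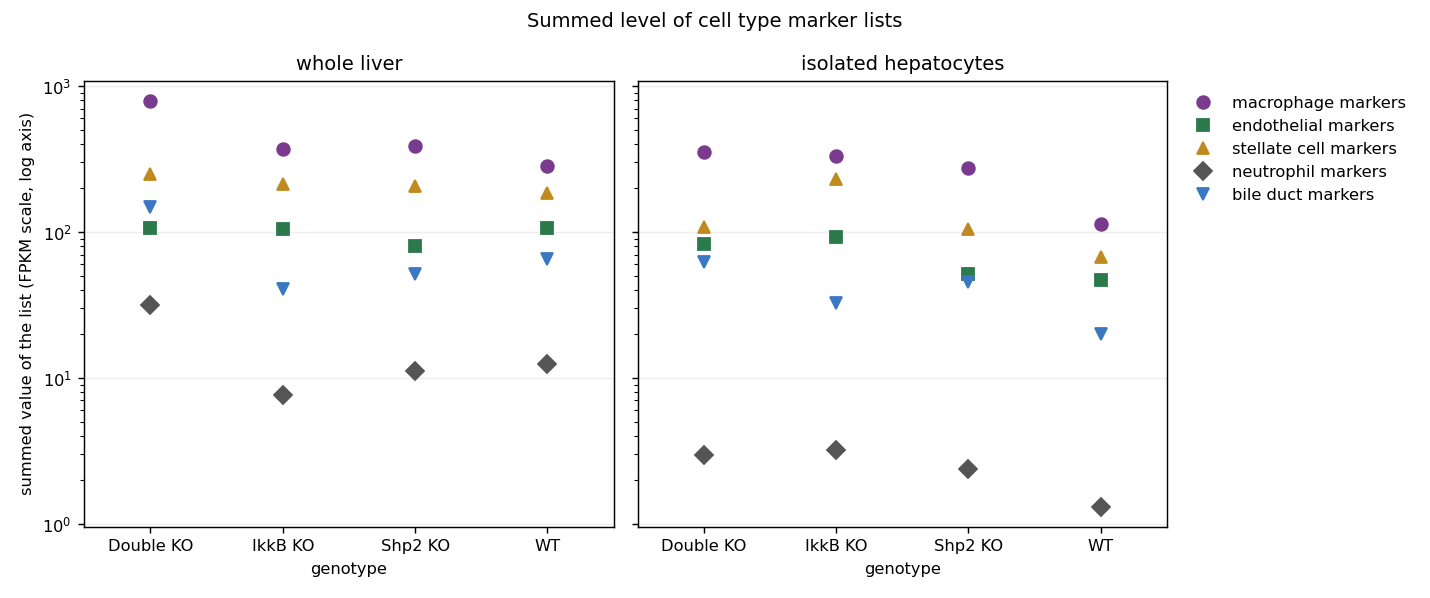
Summed deposited value of 5 lists of cell type markers (FPKM scale, log axis) by genotype, whole liver left and isolated hepatocytes right, 1 sum per genotype. The macrophage sum is highest in Double KO and lowest in WT in both preparations, and the stellate sum stands out in IkkB KO hepatocytes at 231.

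The pattern of each gene over the 8 groups was set beside that of 11627 other genes that reached a value of 1, by Pearson r of log2(value + 1) centred within each table. The genes most alike were *Ddx28* for *Fos* (r = 0.984), *Ccm2* for *Jun* (0.982), *Mesdc2* for *Junb* (0.991), *Gpkow* for *Egr1* (0.990), *Crtap* for *Atf3* (0.981), *Sdf4* for *Ier2* (0.987), *Xpo4* for *Nr4a1* (0.962), *Ranbp6* for *Dusp1* (0.981), *Tcf24* for *Klf6* (0.993) and *Ccdc122* for *Fosb* (0.990). With 8 points that share libraries and WT, and so many genes searched, such values describe likeness only. *Tcf24* followed *Klf6* with 2.13 in Double KO, 0.470 in IkkB KO and 0.727 in Shp2 KO, against 0.161 in WT liver. Hepatocyte *Tcf24* was 2.22 in Double KO, 1.07 in IkkB KO and 1.91 in Shp2 KO, against 0.171 in WT; the chemokine *Ccl6* was also among its 3 nearest genes (0.987). The glucocorticoid target *Klf9* was the second nearest gene to *Ier2* (0.985).

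Among the tested early genes themselves, *Atf3* and *Klf6* (r = 0.73), *Nr4a1* and *Dusp1* (0.66) and *Jun* and *Junb* (0.61) were the most alike pairs over the 8 values. *Ier2* and *Klf6* (-0.79) and *Dusp1* and *Klf6* (-0.65) ran in opposite directions. *Klf6* was lowest and *Ier2* and *Dusp1* were highest in WT in both tables.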

How the data were processed

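Libraries of polyA RNA were made with Illumina TruSeq v2, per the labels' protocols. The submitters' processing notes name FastQC, Cuffdiff and mm9; not given in the sources used here are the aligner, the annotation, the handling of strand and program versions. The authors deposited a Cuffdiff table for liver (6 pairs of genotypes) and another for hepatocytes (5 pairs). The deposited expression values carry no unit name (other) and are FPKM by the program's convention. The log2 column deposited by the authors is the log2 ratio of these values. The p-value and the q-value of each pair are the authors' own. Benjamini-Hochberg adjustment of all liver p-values gave the deposited q back to within 5.27e-07, but the hepatocyte pairs held here did not (up to 0.284 apart). With 0 columns per sample, depth, its precision and replicate error are unknown.

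Python 3.11.15, numpy 2.4.6, pandas 2.3.3 and matplotlib 3.10.9 were used. A call needed q under 0.05, a completed test and a value of 0.1 or more in either genotype. Levels omit genes with unequal values between pairs (1 in liver, 4 in hepatocytes; no member). The adjustment was tested on simulated data. The members and lists were chosen with earlier results of these data known. All 10 members, *Ikbkb* and *Ptpn11* were named whatever their values, then up to 4 called genes per list and comparison, up to 3 per marker list, and the 3 genes most like each member. Alternatives were other thresholds, filters, pseudocounts, centring and adjustment. Promoters came from RefSeq (GRCm38.p6) and gene structures from GENCODE on GRCm38; no mm9 coordinate was used with them. Protein sequences were not used here.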

Additional observations from a re-analysis of the deposited data

Results flagged for a closer look

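*Nr4a1* passed the authors' threshold in opposite directions under the same contrast. In IkkB KO against WT its log2 ratio was -1.07 in whole liver (2.43 in IkkB KO, 5.09 in WT) and 1.66 in isolated hepatocytes (6.44 in IkkB KO, 2.04 in WT). The difference between the preparations was not tested, since the tables were made separately and hold no replicate values. No other early gene was called in opposite directions in the same contrast.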

How the results depend on the processing

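Counts of early genes called stayed within 1.5 times of those reported in all 11 comparisons without a filter on low values, with a minimum value of 1 and with adjustment within the comparison. With q under 0.01 the counts were 0 in Shp2 KO against WT, 2 in Double KO against Shp2 KO and 2 in Shp2 KO against IkkB KO in liver, and 2 in Double KO against IkkB KO in hepatocytes. With a log2 ratio of at least 1 added to the q threshold they were 0, 2 and 2 in those liver comparisons, and 3 in Shp2 KO against WT, 2 in Double KO against WT and 2 in Double KO against IkkB KO in hepatocytes. Adjusting within the comparison ended the calls of *Dusp1* in Double KO against Shp2 KO liver and in Double KO against IkkB KO hepatocytes and of *Nr4a1* in Double KO against WT hepatocytes, and added *Egr1* in Double KO against IkkB KO liver. Of the recomputed log2 ratios of members, 1 changed sign: *Dusp1* in Double KO against Shp2 KO hepatocytes, which was not called, was -0.00689 after centring on the median of all genes. With log2(value + 1), the Double KO minus the sum of the single differences was 0.37 for *Fos* in liver and 0.81 for *Fos*, -1.04 for *Atf3* and -0.57 for *Klf6* in hepatocytes, in each case nearer 0 by the construction of the pseudocount. Of the 3 genes most like a member, 1 was shared for *Fosb* with log2(value + 0.1), and 1 each for *Fosb*, *Atf3*, *Nr4a1* and *Klf6* with a minimum value of 5. No paired analysis was possible because the tables hold no value per replicate, and leaving out replicates was not run for the same reason. Hepatocyte Shp2 KO against IkkB KO has no value here.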
